A study of Homo sapiens with 8 samples.

Results

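The matrix metalloproteinases (MMPs), the ADAMTS proteases and the tissue inhibitors of metalloproteinases (TIMPs) were examined in LNCaP cells after transfection with siRNA against GATA2. Members were taken by symbol, as MMP or ADAMTS followed by a number, or TIMP1 to TIMP4, through the RefSeq name of each array probe. Of 47 such symbols 46 had a probe (23 MMP, 19 ADAMTS and 4 TIMP genes), and 34 of these (18, 13 and 3) were bright enough to be tested among 28850 genes in all. LNCaP is an established, androgen-sensitive prostate cancer line derived from a lymph node metastasis. Cells had received 30 nM of siGATA2 or of a control siRNA (siControl), and RNA was collected after 72 h, with 4 one-colour arrays in each group. Both groups were LNCaP cells kept in the same serum-containing medium and given the same transfection reagent. The labels number the replicates without saying whether they were separate cultures, so that every p-value measures the spread between these arrays, which may be technical.

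MMPs are zinc-dependent endopeptidases, secreted or held at the cell surface, which are made as inactive precursors and cleave collagens, other matrix proteins and many signalling proteins. ADAMTS enzymes are secreted relatives with thrombospondin repeats, which process procollagens, proteoglycans such as versican and aggrecan, and von Willebrand factor. TIMPs bind the active sites of these proteases, and the balance of proteases and TIMPs is a long-standing subject in tumour invasion. Silencing of GATA2, a transcription factor of the prostate epithelium, was studied as a step in the control of prostate cancer cell motility and invasion, which is the question this gene family bears on.

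Each value is the log2 of the processed fluorescence signal after quantile normalization, and differences on that scale are given as siGATA2 less siControl, from group means. Each gene is represented by its brightest probe. A gene was called higher or lower when its adjusted p was under 0.05 in limma, a linear model with a moderated variance, adjusted by Benjamini-Hochberg over all 28850 genes. A probe was counted as measured on an array when the scanner software marked it as well above background. GATA2, the silenced gene, did not fall on its own probe. Its log2 signals were 12.61, 12.54, 11.57 and 11.40 on the arrays labelled siGATA2 and 11.74, 11.28, 11.10 and 11.29 on those labelled siControl, a difference of 0.68 ± 0.31 (SE, limma adjusted p = 0.154) with overlapping groups. The groups are therefore named as labelled, and each direction given below rests on those labels. Signal over background also differed between arrays. Between 34136 and 36735 probes were well above background on the siGATA2 arrays, against 34591 and 33788 on siControl arrays 2 and 4, 28305 on array 1 and 24072 on array 3. The 7 luminal prostate markers examined, among them KLK3 and KRT18, were well above background on all arrays. Of 9 fibroblast markers, 6 were tested and COL3A1, LUM and FAP were too dim, whereas 1, COL1A1, was above background on every array. Of 6 endothelial markers, 5 were tested and 2, CDH5 and VWF, were above background on every array. Of 6 leukocyte markers, 3 were so.

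The family split in both directions. Of the 34 members tested, 7 were lower in cells labelled siGATA2 (20.6%, against 14.2% of all genes tested) and 7 were higher (20.6%, against 12.3%), and 20 were not called. With a change of at least 2-fold, 6 members were lower (17.6%, against 7.13% of all genes) and 3 were higher (8.82%, against 4.52%). The groups did not overlap for 16 members (47.1%, against 32.6% of all genes). The median difference was 0.10 over the members and 0.09 over all genes. Lower members were TIMP3, ADAMTS1, MMP26, MMP11, ADAMTS3, MMP16 and ADAMTS4, and higher members were MMP12, MMP23B, TIMP2, MMP9, MMP24, MMP21 and ADAMTS10. These counts include MMP26, which passed the filter only through the siControl arrays, and MMP12, which passed it only through the siGATA2 arrays. Without siControl arrays 1 and 3 together, 32 members were tested. Of these, 4 were called lower (ADAMTS1, ADAMTS3, MMP11 and TIMP3) and 5 higher (ADAMTS10, MMP21, MMP23B, MMP9 and TIMP2). Over all 28745 genes tested in that setting, 3713 were called lower and 2704 higher. The share of members called lower was then no larger than that of all genes, and the share called higher was still larger. With scaling to E1A spike-in RNA, 5 members were lower and 0 higher (limma, with 2 higher at an unadjusted p under 0.05). Of all 28820 genes tested with that scaling, 1899 were called lower and 141 higher. The 7 E1A probes averaged 11.13 (log2) for siControl replicate 1, whereas the remaining arrays ran from 13.45 to 13.83. With that replicate left out the spike-in scaling gave 5 lower and 5 higher of 30 members, against 4368 and 1827 of 28244 genes. It kept 4 of the reported lower calls and 4 of the higher, and added MMP15 and ADAMTS13.

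**Figure D1:**
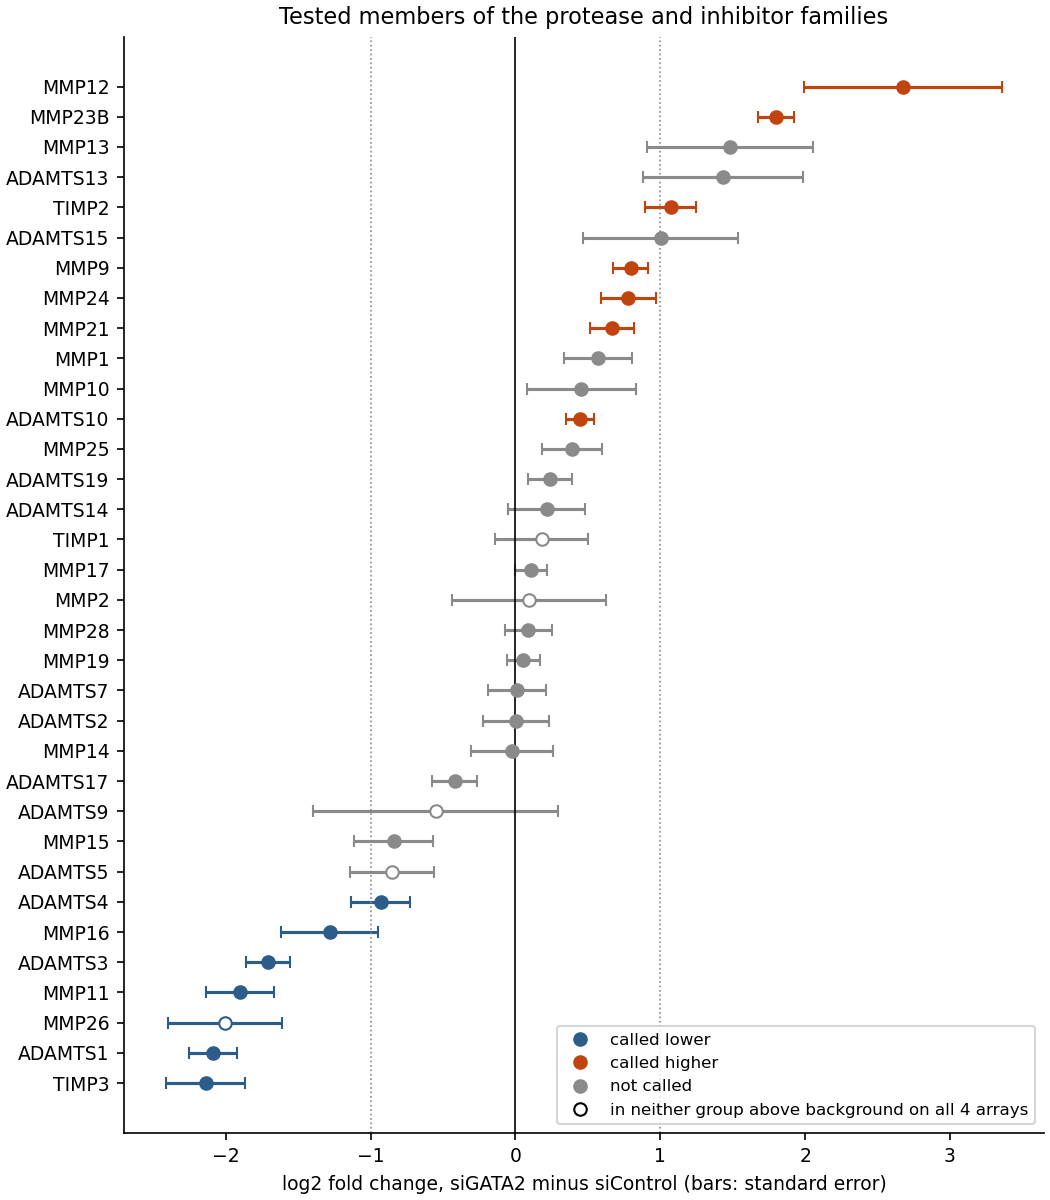
Log2 fold change of the 34 tested members (siGATA2 minus siControl, 4 arrays each), with standard errors as bars and dotted lines at a 2-fold change. Called members lie at both ends, from TIMP3 at -2.14 to MMP12 at 2.68, and open points had no group in which all 4 arrays were above background.

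Among the inhibitors, TIMP3 fell and TIMP2 rose. TIMP3 is bound to the extracellular matrix and inhibits ADAMTS proteases as well as MMPs, and TIMP2 inhibits MMPs and also takes part in the activation of MMP2 at the cell surface. TIMP3 had log2 signals of 5.29, 5.29, 5.56 and 5.67 on the siGATA2 arrays and 7.09, 7.99, 7.12 and 8.16 on the siControl arrays. The groups lay more than 1 log2 unit apart, and siControl arrays 2 and 4 were the highest. TIMP3 fell by 2.14 ± 0.27 (SE) on the log2 scale (limma adjusted p = 8.31e-04). TIMP2 had log2 signals of 15.51, 15.49, 15.31 and 15.29 on the siGATA2 arrays and 14.82, 14.27, 14.05 and 14.16 on the siControl arrays. All siGATA2 values lay above all siControl values, of which array 1 was the highest. TIMP2 rose by 1.07 ± 0.18 (SE) (limma adjusted p = 0.00314), and by 0.34 without being called when the arrays were scaled to the E1A spike-in. TIMP1 passed the filter but was well above background on 0 of 8 arrays, and TIMP4 was too dim to be tested.

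**Figure D2:**
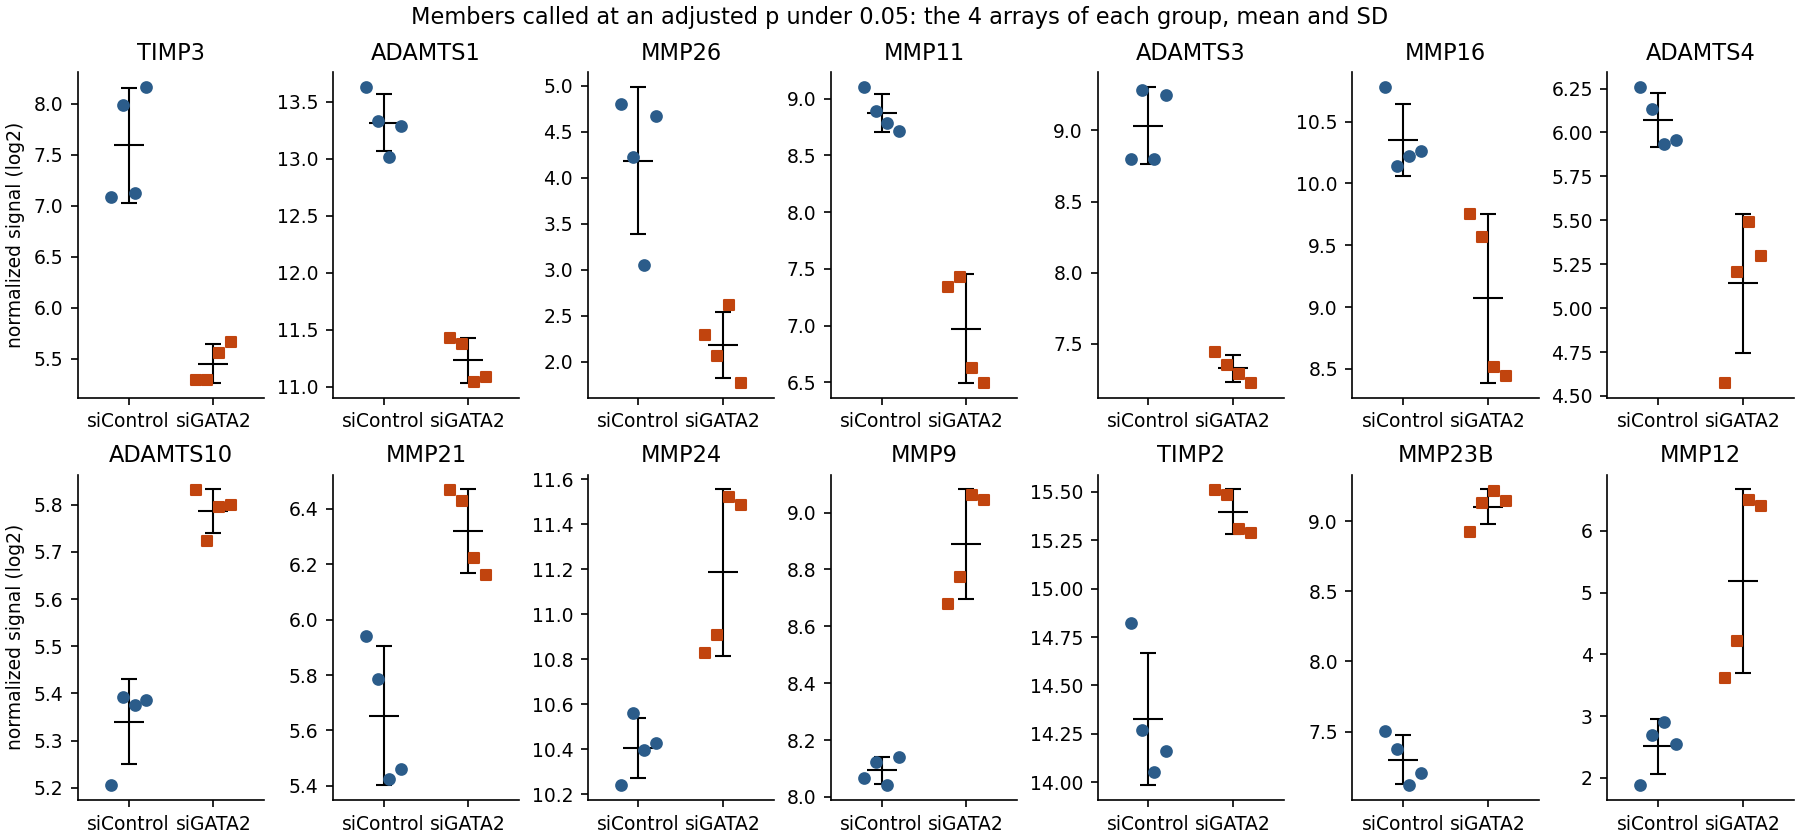
Normalized log2 signal of the 14 called members on each of the 4 siControl (circles) and 4 siGATA2 (squares) arrays, with group means and SDs. The 2 groups do not overlap in any panel, and for MMP12, MMP16, MMP11 and MMP24 the siGATA2 arrays lie in 2 pairs.

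Among the ADAMTS enzymes, 3 of 13 tested fell (23.1%, against 14.2% of all genes) and 1 rose (7.69%, against 12.3%). ADAMTS1, a protease that cleaves versican and aggrecan and that blocks angiogenesis through its thrombospondin repeats, had log2 signals of 11.43, 11.37, 11.04 and 11.08 on the siGATA2 arrays and 13.63, 13.33, 13.01 and 13.29 on the siControl arrays. The highest siGATA2 value lay more than 1 log2 unit below the lowest siControl value. ADAMTS1 fell by 2.09 ± 0.16 (SE) (limma adjusted p = 8.13e-05), and its other probe fell by 2.06. ADAMTS1 belongs to a co-expression module that the study tied to the response in these same arrays, so that its fall is not independent of that choice. Of the other proteoglycanases, ADAMTS4 had log2 signals of 4.57, 5.21, 5.49 and 5.29 on the siGATA2 arrays and 6.26, 6.13, 5.93 and 5.96 on the siControl arrays. The groups lay close to each other without overlap. ADAMTS4 fell by 0.93 ± 0.20 (SE) (limma adjusted p = 0.0116), and its call was lost without siControl arrays 1 and 3 and with either scaling by the 75th percentile or by the spike-in. ADAMTS15 had log2 signals of 3.50, 3.54, 3.82 and 4.15 on the siGATA2 arrays and 1.74, 4.03, 1.78 and 3.45 on the siControl arrays, of which 1 was measured. Its difference of 1.00 ± 0.53 (SE) did not pass the test (limma adjusted p = 0.213). ADAMTS5, the neighbour of ADAMTS1 on chromosome 21, and ADAMTS9 were well above background on 0 of 8 arrays.

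Of the 3 procollagen N-proteinases, which remove the amino-terminal propeptides of fibrillar procollagens, 1 was called lower (33.3%, against 14.2% of all genes). ADAMTS3, which also processes the lymphatic growth factor VEGFC, had log2 signals of 7.44, 7.35, 7.29 and 7.22 on the siGATA2 arrays and 8.80, 9.29, 8.80 and 9.25 on the siControl arrays. The siGATA2 values were tightly grouped below the siControl values, of which arrays 1 and 3 matched each other and arrays 2 and 4 were higher. ADAMTS3 fell by 1.71 ± 0.15 (SE) (limma adjusted p = 1.36e-04). ADAMTS2 showed a difference of 0.00 ± 0.23 (SE, limma adjusted p = 0.992) and ADAMTS14 one of 0.22 ± 0.27 (SE, limma adjusted p = 0.589), neither of which passed the test. The ADAMTS2 log2 signals were 4.96, 5.13, 5.73 and 5.85 on the siGATA2 arrays, where arrays 1 and 2 lay below the siControl range of 5.25 to 5.70 and arrays 3 and 4 above it. ADAMTS14 ranged from 3.78 to 4.47 on the siGATA2 arrays and 3.32 to 4.55 on the siControl arrays.

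Of the remaining ADAMTS genes, ADAMTS10, which is linked to fibrillin microfibrils, rose. Its log2 signals were 5.83, 5.72, 5.79 and 5.80 on the siGATA2 arrays and 5.21, 5.39, 5.38 and 5.39 on the siControl arrays, a rise of 0.45 ± 0.09 (SE) (limma adjusted p = 0.00963). The change was small and the siControl probe was measured on 2 of 4 arrays. The call was lost with the replicate block (limma adjusted p = 0.051) and with spike-in scaling, with or without siControl array 1, and the difference ran from 0.15 to 0.75 over 23 settings. ADAMTS17, which like ADAMTS10 is tied to microfibrils, had log2 signals of 8.20, 8.08, 7.86 and 7.88 on the siGATA2 arrays and 8.78, 8.45, 8.21 and 8.26 on the siControl arrays. The siGATA2 values lay below the siControl values without overlap, yet the difference of -0.42 ± 0.16 (SE) did not pass the test (limma adjusted p = 0.0894). ADAMTS19 ranged from 7.22 to 7.33 on the siGATA2 arrays and 6.68 to 7.38 on the siControl arrays, a difference of 0.24 ± 0.15 (SE, limma adjusted p = 0.288).

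ADAMTS13 and ADAMTS7 depended on the probe. ADAMTS13, the protease that cleaves von Willebrand factor, had log2 signals on its brightest probe of 14.10, 13.97, 12.35 and 12.39 on the siGATA2 arrays and 12.96, 11.31, 11.49 and 11.32 on the siControl arrays. The siGATA2 arrays formed 2 pairs, siControl array 1 stood above the other controls, and the difference of 1.43 ± 0.55 (SE) did not pass the test (limma adjusted p = 0.0966). It was called higher in 6 of 23 alternative settings, among them array weights, the replicate block, the mean of its probes and a block on the letter in the sample title, A or B in one block and the later letters in the other (1.03, limma adjusted p = 6.5e-05). Its other probe read 8.59, 8.70, 8.66 and 8.68 on the siGATA2 arrays and 7.74, 7.99, 7.99 and 7.98 on the siControl arrays, which was a rise of 0.73 ± 0.10 (SE, limma adjusted p over all probes = 0.00134). ADAMTS7, which degrades cartilage oligomeric matrix protein, had 4 probes that passed the filter. The brightest differed by 0.01 ± 0.20 (SE, limma adjusted p = 0.972), and the others differed by 0.22, -0.86 and 0.16, of which the fall of 0.86 had a limma adjusted p of 0.00578.

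**Figure D3:**
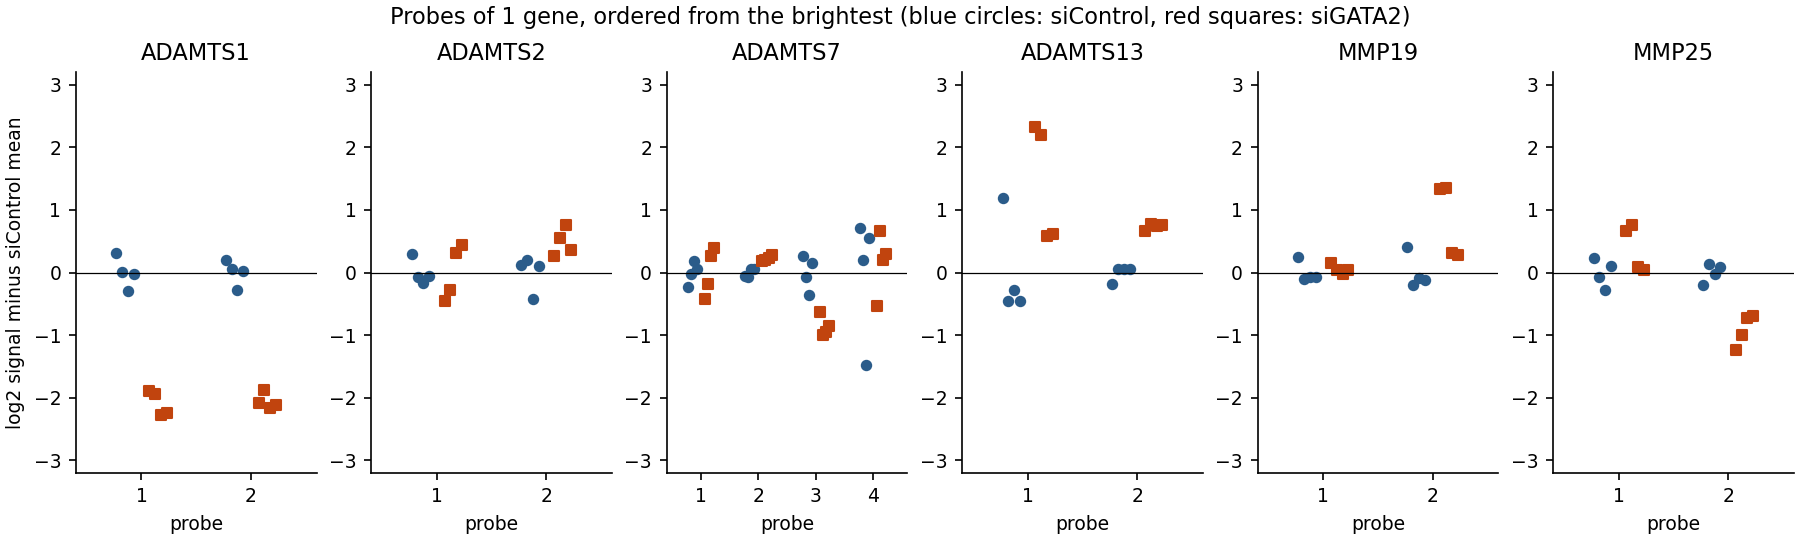
Log2 signal of each tested probe of 6 genes with over 1 probe, minus that probe's siControl mean, for the siControl (blue circles) and siGATA2 (red squares) arrays. Both probes of ADAMTS1 fell by about the same amount (2.09 and 2.06), whereas the probes of MMP25 moved apart, by 0.39 and -0.91.

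Among the stromelysins and matrilysins, MMP11 fell, and MMP26 was called lower on a probe near background. MMP11 (stromelysin 3) is cleaved to its active form inside the cell by furin and is best known from the stroma of carcinomas. The MMP11 probe gave log2 signals of 7.34, 7.42, 6.63 and 6.49 on the siGATA2 arrays and 9.10, 8.89, 8.78 and 8.71 on the siControl arrays. All siGATA2 values were more than 1 log2 unit below the controls, and siGATA2 arrays 3 and 4 were lower than arrays 1 and 2. MMP11 fell by 1.90 ± 0.24 (SE) (limma adjusted p = 7.43e-04). Of 6 fibroblast markers tested, PDGFRB was lower (16.7%, against 14.2% of all genes) and THY1 higher (16.7%, against 12.3%). THY1 passed the filter only through the siGATA2 arrays, and nothing is read from its call. The mean log2 signal of the 6 markers ranged from 4.68 to 5.04 on the siGATA2 arrays and from 4.82 to 5.10 on the siControl arrays. MMP10 (stromelysin 2) had log2 signals of 4.35, 4.56, 5.02 and 4.80 on the siGATA2 arrays and 4.78, 4.52, 3.06 and 4.55 on the siControl arrays, and the difference of 0.46 ± 0.38 (SE) did not pass the test (limma adjusted p = 0.413). MMP26, the smallest type of MMP, which lacks the hemopexin domain, was measured on 2 of 4 siControl arrays and 0 of 4 siGATA2 arrays. Its siControl mean was 1.78-fold above the dimmest probes well above background on the siGATA2 arrays. That mean includes siControl arrays that did not measure MMP26, so it gives no bound. MMP26 also passed the filter only through the siControl arrays, and nothing is read from its call (limma adjusted p = 0.00692). That call was lost when siControl arrays 1 and 3 were left out, and when siControl array 1 or array 4 alone was left out, since the probe then failed the filter.

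The membrane-type MMPs sit at the cell surface by a transmembrane segment or, in MMP17 and MMP25, by a lipid anchor. Of the 6 members, all tested, MMP16 fell (16.7%, against 14.2% of all genes) and MMP24 rose (16.7%, against 12.3%). MMP16 had log2 signals of 9.75, 9.57, 8.52 and 8.45 on the siGATA2 arrays and 10.78, 10.14, 10.22 and 10.27 on the siControl arrays. The siGATA2 values were all below the controls, with arrays 3 and 4 about 1 log2 unit below arrays 1 and 2. MMP16 fell by 1.28 ± 0.34 (SE) (limma adjusted p = 0.0249), and the call was lost when siGATA2 array 3 or 4 or siControl array 1 or 4 was left out (limma adjusted p = 0.0601, 0.0566, 0.0555 and 0.0557), and in the methods' t-test (adjusted p = 0.0528 over all genes). MMP24, known from the nervous system, had log2 signals of 10.83, 10.91, 11.52 and 11.48 on the siGATA2 arrays and 10.24, 10.56, 10.40 and 10.43 on the siControl arrays. The groups did not overlap, and here siGATA2 arrays 3 and 4 were the higher pair. MMP24 rose by 0.78 ± 0.19 (SE) (limma adjusted p = 0.0188), a call that was lost without siControl arrays 1 and 3.

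MMP14, the principal activator of MMP2 precursor at the cell surface, did not pass the test. Its log2 signals were 5.34, 5.61, 4.49 and 4.98 on the siGATA2 arrays and 5.33, 5.45, 4.59 and 5.14 on the siControl arrays, a difference of -0.03 ± 0.28 (SE, limma adjusted p = 0.956). MMP15 had log2 signals of 12.70, 12.53, 11.65 and 11.55 on the siGATA2 arrays and 13.03, 12.87, 12.97 and 12.93 on the siControl arrays. Its siGATA2 values lay below all siControl values, and the difference of -0.84 ± 0.27 (SE) just missed the threshold (limma adjusted p = 0.0559). MMP15 was called lower in 8 of 23 alternative settings, among them 75th percentile scaling, normexp background correction and the block by title letter (limma adjusted p = 0.0226, 0.0468 and 0.0043). MMP17 ranged from 13.37 to 13.70 on the siGATA2 arrays and 13.42 to 13.57 on the siControl arrays and differed by 0.11 ± 0.11 (SE, limma adjusted p = 0.498). For MMP25 the probes opposed each other. The brightest read 7.62, 7.71, 7.03 and 6.99 on the siGATA2 arrays and 7.18, 6.88, 6.67 and 7.06 on the siControl arrays (limma adjusted p = 0.216), and the other read 6.17, 6.41, 6.67 and 6.70 and 7.20, 7.55, 7.38 and 7.48, a fall of 0.91 ± 0.15 (SE, limma adjusted p over all probes = 0.00326). No direction is therefore given for MMP25.

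Of the gelatinases, which degrade denatured collagen and type IV collagen of basement membranes, MMP9 rose. MMP9 (gelatinase B) had log2 signals of 8.68, 8.77, 9.06 and 9.04 on the siGATA2 arrays and 8.07, 8.12, 8.04 and 8.14 on the siControl arrays. The siControl values were nearly equal and all lay below the siGATA2 values. MMP9 rose by 0.80 ± 0.12 (SE) (limma adjusted p = 0.00192), and by 0.32 without being called with spike-in scaling. MMP2 (gelatinase A) was well above background on 2 of 4 siGATA2 arrays and 0 of 4 siControl arrays and was not called.

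MMP12, the elastase of macrophages, was measured on 4 of 4 siGATA2 arrays and 0 of 4 siControl arrays. Its log2 signals were 3.61, 4.22, 6.51 and 6.40 on the siGATA2 arrays and 1.88, 2.70, 2.91 and 2.55 on the siControl arrays. The siGATA2 arrays formed 2 pairs, with arrays 3 and 4 more than 2 log2 units above arrays 1 and 2. The MMP12 mean on the siGATA2 arrays, 5.18, was 1.30-fold above the dimmest probes well above background on the siControl arrays. Arrays 1 and 2 lay below that mean, and no minimum rise is read from it. The MMP12 siControl mean of 2.51 lay under the filter of 3, so that the gene passed only through the siGATA2 arrays. Nothing is therefore read from its call (limma adjusted p = 0.0225). That call was lost when siGATA2 array 3 or 4 or siControl array 1, 2 or 4 was left out (limma adjusted p between 0.0502 and 0.0545), and with normexp background correction, which gave a log2 difference of 0.71. The methods' t-test also missed the threshold for MMP12 (adjusted p = 0.0527 over all genes). Some genes used as leukocyte markers were also higher, although the labels name LNCaP cells only, so that these are signals in LNCaP cultures. Of 6 such markers, all tested, 3 were called higher (50%, against 12.3% of all genes; PTPRC by 0.87, CD68 by 2.00 and CSF1R by 0.53), and CD14, CD3E and ITGAM were not called. Their mean log2 signal ranged from 7.30 to 7.52 on the siGATA2 arrays and from 6.70 to 6.88 on the siControl arrays. They are not read as a sign of leukocytes, and a relation to the MMP values was not tested. Whether a share of the LNCaP cells or the RNA per cell changed cannot be told from RNA of whole cultures.

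MMP12 lies in a cluster of 9 MMP genes on chromosome 11 (MMP7, MMP20, MMP27, MMP8, MMP10, MMP1, MMP3, MMP12 and MMP13, in the order of RefSeq). Of these 9, MMP1, MMP10, MMP12 and MMP13 were bright enough to be tested. Of these 4, MMP12 was the 1 gene called, as higher, against 12.3% of all genes. The collagenases MMP1 and MMP13, which cut fibrillar collagen in its triple helix, did not pass the test. MMP1 had log2 signals of 4.95, 4.75, 4.34 and 4.48 on the siGATA2 arrays and 4.16, 4.36, 3.43 and 4.29 on the siControl arrays, a difference of 0.57 ± 0.24 (SE, limma adjusted p = 0.119). MMP13 had log2 signals of 4.36, 4.55, 5.91 and 6.10 on the siGATA2 arrays and 2.60, 4.78, 3.48 and 4.14 on the siControl arrays, a difference of 1.48 ± 0.57 (SE, limma adjusted p = 0.098). For MMP13, as for MMP12, siGATA2 arrays 3 and 4 were the high pair, and the MMP13 values of the siControl arrays spread over more than 2 log2 units.

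MMP23B and MMP21 rose. MMP23B is an unusual MMP with an amino-terminal membrane anchor and no hemopexin domain. Its log2 signals were 8.92, 9.13, 9.21 and 9.14 on the siGATA2 arrays and 7.51, 7.38, 7.12 and 7.20 on the siControl arrays. The arrays of each group agreed closely, and the groups lay more than 1 log2 unit apart. MMP23B rose by 1.80 ± 0.13 (SE) (limma adjusted p = 4.81e-05), and by 1.32 without being called with spike-in scaling. MMP23A, a nearly identical pseudogene copy, had no probe of its own, so that signal from the pair cannot be told apart. MMP21, known for its part in left-right patterning of the embryo, had log2 signals of 6.47, 6.43, 6.22 and 6.16 on the siGATA2 arrays and 5.94, 5.79, 5.43 and 5.46 on the siControl arrays, a rise of 0.67 ± 0.15 (SE) (limma adjusted p = 0.0141). Its groups did not overlap, and siControl arrays 3 and 4 were the lowest.

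MMP19 and MMP28 did not pass the test. MMP19 ranged from 9.87 to 10.03 on the siGATA2 arrays and 9.78 to 10.14 on the siControl arrays on its brightest probe and differed by 0.05 ± 0.12 (SE, limma adjusted p = 0.756), and its other probe differed by 0.82 ± 0.30 (SE, limma adjusted p over all probes = 0.0829). MMP28 (epilysin), which like MMP11 carries a furin cleavage site, ranged from 10.59 to 10.83 on the siGATA2 arrays and 10.25 to 10.97 on the siControl arrays and differed by 0.09 ± 0.16 (SE, limma adjusted p = 0.721).

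More members were detected on the siGATA2 arrays. By their best-detected probe, 29 of 46 members were well above background on all 4 siGATA2 arrays and 17 on all 4 siControl arrays, and 13 were so on 0 of 8 arrays. There were 12 members with all 4 siGATA2 arrays and fewer siControl arrays, and 0 with the reverse. Of the siControl arrays, arrays 2 and 4 alone both measured 26 members, and 4 members were measured on all 4 siGATA2 arrays but not on both of these. Per array, 29 to 31 members were well above background on the siGATA2 arrays, against 30 and 26 on siControl arrays 2 and 4, 21 on array 1 and 17 on array 3. The 2 siControl arrays with the fewest members were thus those with the fewest probes above background over the whole array, and the part of that in these counts was not tested. These arrays, 1 and 3, had 28305 and 24072 such probes, against 34136 to 36735 on the siGATA2 arrays. The share of all genes with the same pattern was not counted, so that these counts are not read as particular to the family. The 12 members too dim to be tested were ADAMTS6, ADAMTS8, ADAMTS12, ADAMTS16, ADAMTS18, ADAMTS20, MMP3, MMP7, MMP8, MMP20, MMP27 and TIMP4.

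**Figure D4:**
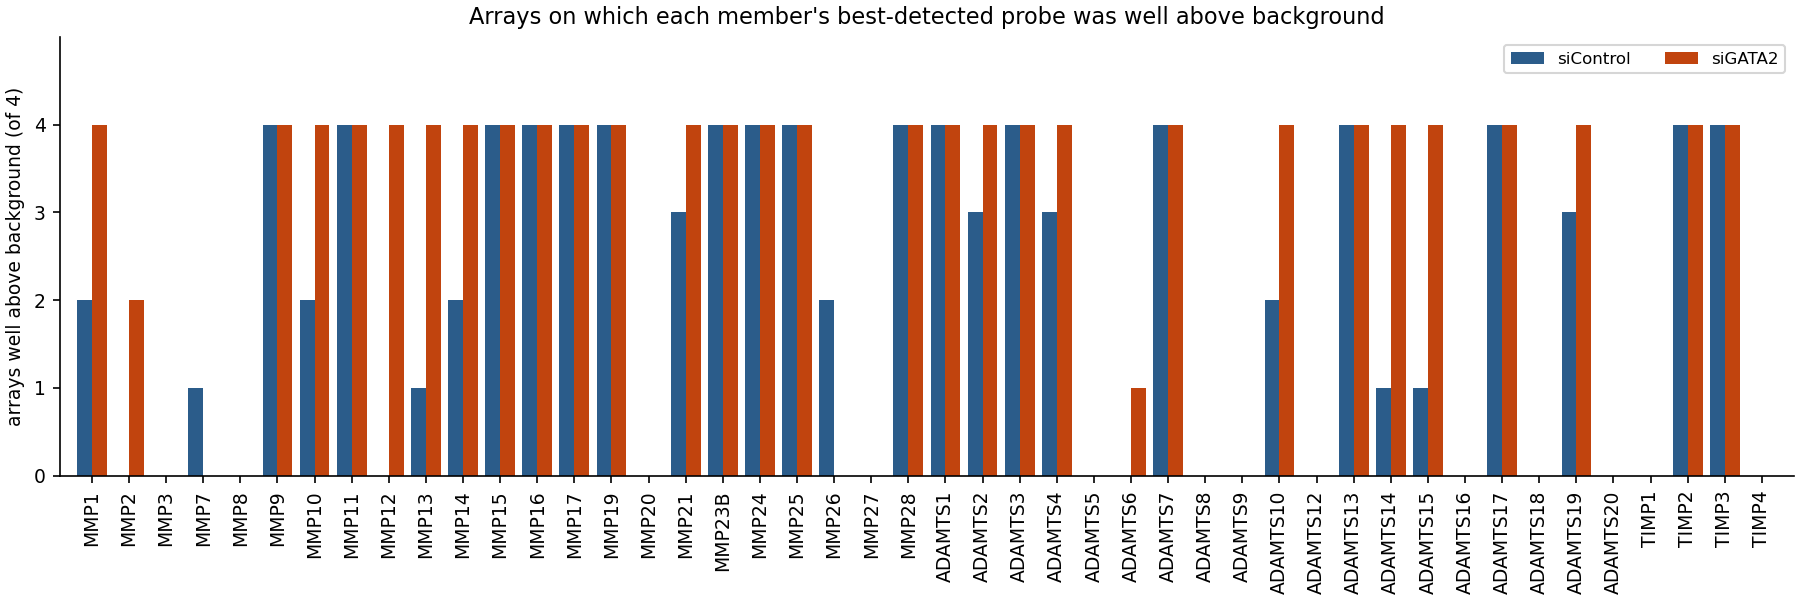
Number of siControl and siGATA2 arrays (of 4 each) on which the best-detected probe of each of the 46 members was well above background; no bar means 0 arrays. In total 29 members reach 4 siGATA2 arrays and 17 reach 4 siControl arrays.

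The siGATA2 arrays fell into 2 pairs for part of the family. Arrays 1 and 2 and arrays 3 and 4 differed by more than 1 log2 unit in their means for 5 of 30 members given values here, with arrays 3 and 4 higher by 2.54 for MMP12 and 1.55 for MMP13, and with differences of -1.66 for ADAMTS13, -1.18 for MMP16 and -1.01 for MMP15. GATA2 itself lay at 12.61 and 12.54 on arrays 1 and 2 and at 11.57 and 11.40 on arrays 3 and 4. Of the called members, ADAMTS1, ADAMTS3, ADAMTS10, MMP9, MMP21, MMP23B, TIMP2 and TIMP3 showed smaller differences between the pairs, none larger in size than the -0.34 of ADAMTS1. By sample title, siGATA2 arrays 1 and 2 and siControl array 1 carry the letters A or B, and the other arrays D to G. This split is uneven between the groups, and the reported fit does not model it. A block on it called 5757 of all genes lower and 7198 higher, against 4086 and 3558 in the reported fit.

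Because the transfection was aimed at a GATA factor, the letters upstream of the start site were read for part of the members. RefSeq promoter windows (GRCh38.p14) of 27 members, 8 of them called, were included. The other called members, MMP16 among them, were left out of the search, so nothing is said of their windows. The 250 bases before the start were searched on both strands for GATA preceded by A or T and followed by A or G. These letters occur in 22.3% of 35116 such windows. Of the 27 members 5 held a match, the called members MMP11 and MMP26 and the members MMP10, ADAMTS6 and ADAMTS18. The AP-1 letters TGACTCA and TGAGTCA, present in 4.2% of all windows, occurred in 1 member, MMP7. A match describes these letters and is not evidence of binding. The windows of 5 called members are shown, 5′ to 3′ on the strand of the gene, with GATA matches in capitals. MMP11, TIMP3, ADAMTS3 and MMP23B are shown as measured falls and a measured rise for which a window was searched. MMP26, from whose call nothing is read, is shown because it holds matches.
MMP11 (chr22:23772599-23772848, strand +): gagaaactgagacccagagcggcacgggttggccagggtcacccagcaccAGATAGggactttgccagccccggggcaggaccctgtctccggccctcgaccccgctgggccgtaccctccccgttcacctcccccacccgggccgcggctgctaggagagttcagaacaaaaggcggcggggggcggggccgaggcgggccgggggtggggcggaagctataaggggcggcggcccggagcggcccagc
MMP26 (chr11:4704534-4704783, strand +): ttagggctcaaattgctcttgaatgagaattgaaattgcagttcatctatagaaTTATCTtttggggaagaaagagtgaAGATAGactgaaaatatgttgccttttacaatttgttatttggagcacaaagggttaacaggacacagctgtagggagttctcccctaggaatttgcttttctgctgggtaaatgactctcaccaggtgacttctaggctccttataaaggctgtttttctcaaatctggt
TIMP3 (chr22:32801455-32801704, strand +): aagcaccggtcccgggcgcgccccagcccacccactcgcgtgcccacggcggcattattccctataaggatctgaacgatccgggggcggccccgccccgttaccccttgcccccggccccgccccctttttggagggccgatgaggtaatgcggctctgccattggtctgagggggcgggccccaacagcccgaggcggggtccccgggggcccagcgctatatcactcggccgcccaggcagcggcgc
ADAMTS3 (chr4:72569222-72569471, strand -): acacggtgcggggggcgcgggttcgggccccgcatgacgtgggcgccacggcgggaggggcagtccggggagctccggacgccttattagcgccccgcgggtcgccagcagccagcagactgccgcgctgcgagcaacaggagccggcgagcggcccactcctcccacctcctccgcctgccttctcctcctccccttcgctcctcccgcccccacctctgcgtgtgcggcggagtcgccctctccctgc
MMP23B (chr1:1631923-1632172, strand +): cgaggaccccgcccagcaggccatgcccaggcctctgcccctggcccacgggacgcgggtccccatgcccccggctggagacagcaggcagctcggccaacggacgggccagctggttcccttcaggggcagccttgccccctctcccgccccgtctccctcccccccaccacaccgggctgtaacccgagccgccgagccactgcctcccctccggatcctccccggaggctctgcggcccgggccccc
MMP11 holds 1 match, which starts 200 bases before the start site, and MMP26 holds 2, at 196 and 171 bases before it. The windows of TIMP3, ADAMTS3 and MMP23B hold none of these letters, so that members that fell are found both with and without them.

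Proteins that activate, restrain or assist these proteases changed in both directions. Of 25 listed, 22 were tested, 5 were lower (22.7%, against 14.2% of all genes) and 2 higher (9.09%, against 12.3%), with a median difference of 0.06. PCOLCE2, an enhancer of procollagen C-proteinase, had log2 signals of 4.90, 4.82, 4.96 and 5.37 on the siGATA2 arrays and 7.96, 8.55, 8.35 and 8.55 on the siControl arrays and fell by 3.34 ± 0.18 (SE) (limma adjusted p = 2.21e-05). SPOCK1, a secreted proteoglycan of the testican family, fell by 2.28 ± 0.39 (SE) (limma adjusted p = 0.00382). FURIN, the proprotein convertase that activates MMP11 and the membrane-type MMPs, had log2 signals of 6.12, 6.26, 6.09 and 5.90 on the siGATA2 arrays and 6.85, 7.52, 7.31 and 7.46 on the siControl arrays and fell by 1.19 ± 0.17 (SE) (limma adjusted p = 0.00139), a call lost with spike-in scaling (limma adjusted p = 0.0544). PLAT, the tissue plasminogen activator, was measured on 0 siGATA2 and 3 siControl arrays. It was called lower, but passed the filter only through the siControl arrays. PLG, the plasmin precursor, fell by 0.65 (limma adjusted p = 0.0273). Both were named after their values were seen. LCN2, a lipocalin that forms a complex with MMP9, was measured on 4 siGATA2 and 0 siControl arrays and was at least 2.49-fold higher (limma adjusted p = 0.00153). PCOLCE rose by 1.15 ± 0.35 (SE) (limma adjusted p = 0.0463), a call lost in 13 of 23 alternative settings, among them leaving out siGATA2 array 1 or 2 or siControl array 2, 3 or 4. The membrane-bound MMP inhibitor RECK differed by 0.29 (limma adjusted p = 0.231) and the MMP inducer BSG by 0.04 (limma adjusted p = 0.853), and neither passed the test.

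Among related metalloproteinases, several ADAM genes rose. Of 19 genes of the ADAM family, some of whose members shed proteins from the cell surface, 17 were tested. Of these, 5 were higher (29.4%, against 12.3% of all genes), with a median difference of 0.51. The rises were led by ADAM21 at 2.75 ± 0.25 (SE, limma adjusted p = 1.67e-04), ADAM32 at 1.53 ± 0.28 (SE, limma adjusted p = 0.0048) and the sheddase ADAM10 at 1.48 ± 0.14 (SE, limma adjusted p = 2.06e-04). ADAM32 was measured on 1 of 4 siControl arrays. The others were ADAM9 (1.48) and ADAM15 (0.96), named after their values were seen. Of 4 tested astacin proteases, BMP1, the procollagen C-proteinase, rose by 1.48 ± 0.24 (SE) (limma adjusted p = 0.00304). TLL2, also an astacin protease, was called lower but was measured on 0 siGATA2 and 0 siControl arrays. Of the 4 astacin proteases, 1 was thus called higher and 1 lower (25% each, against 12.3% and 14.2% of all genes). Of 7 ADAMTS-like proteins 1 was called, ADAMTSL4, which rose by 0.91 (14.3% higher, against 12.3% of all genes). With spike-in scaling ADAM10, ADAM32, BMP1 and PCOLCE kept a positive difference and lost their calls.

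The matrix proteins on which these enzymes act also moved both ways. Of 53 listed, 44 were tested, 7 were lower (15.9%, against 14.2% of all genes) and 11 higher (25%, against 12.3%), with a median difference of 0.16. COL5A2, a chain of fibrillar type V collagen, had log2 signals of 7.87, 7.68, 7.37 and 7.52 on the siGATA2 arrays and 10.99, 11.11, 10.96 and 10.98 on the siControl arrays and fell by 3.40 ± 0.13 (SE) (limma adjusted p = 1.17e-05). COL4A6, a basement membrane collagen, fell by 2.38 ± 0.25 (SE) (limma adjusted p = 3.32e-04), and COL12A1, a fibril-associated collagen, fell by 1.25 ± 0.28 (SE) (limma adjusted p = 0.0128). The COL12A1 call was lost with the slide row as a block and with spike-in scaling (limma adjusted p = 0.0624 and 0.0718). COL6A2 rose by 1.49 ± 0.26 (SE) (limma adjusted p = 0.00392), the adaptor protein MATN2 by 1.42 ± 0.15 (SE) (limma adjusted p = 3.32e-04), and the basement membrane proteoglycan AGRN by 1.33 ± 0.28 (SE) (limma adjusted p = 0.00947). The AGRN call was lost without siControl arrays 1 and 3, and all 3 rises lost their calls with spike-in scaling.

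**Figure D5:**
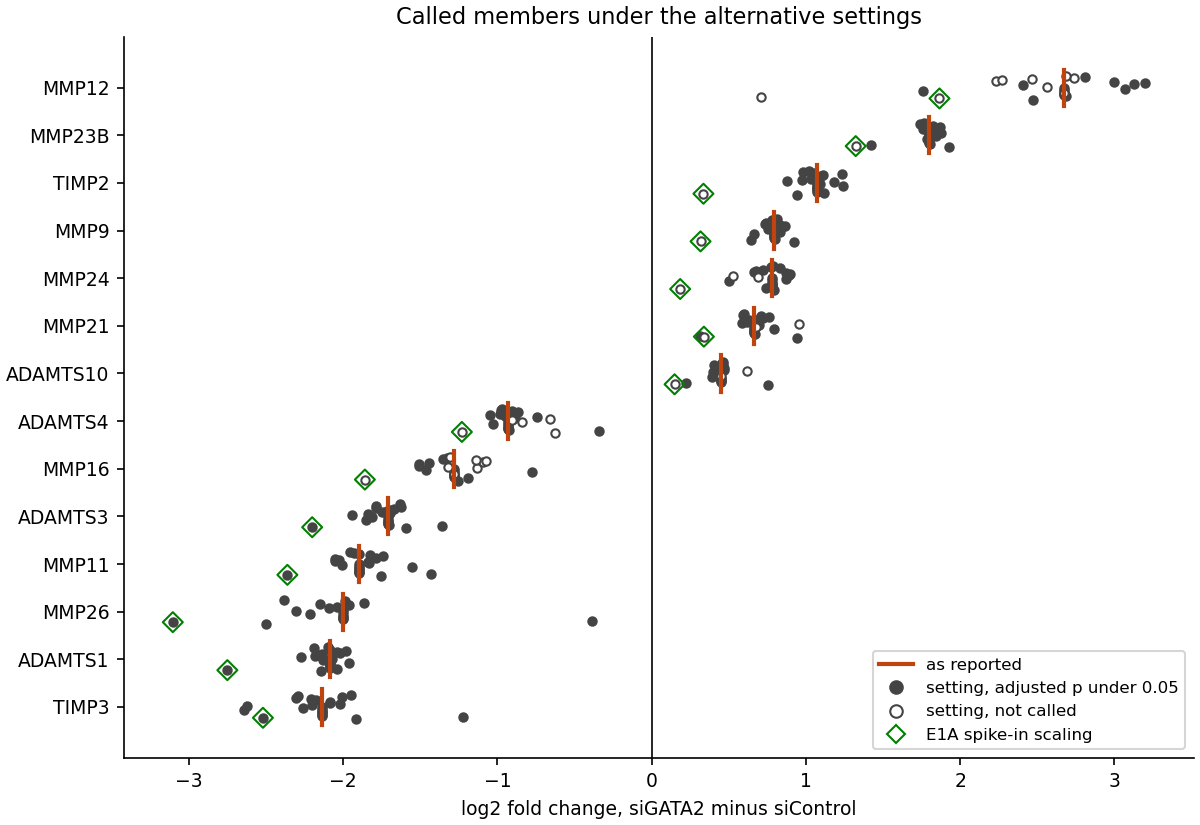
Log2 fold change of the 14 called members as reported (red bar) and under the alternative settings (points; open where the adjusted p was 0.05 or more; diamonds mark spike-in scaling). ADAMTS1, ADAMTS3, MMP11 and TIMP3 have no open point over 23 settings, MMP26 was tested in 18 of them, and the 7 rises are open under spike-in scaling.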

How the data were processed

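The groups and replicate numbers come from the labels of the 8 samples. The authors deposited spot intensities written by Agilent Feature Extraction 11.0.1.1, with flags, and a matrix of log2 values made, per the methods, by quantile normalization in GeneSpring. The correlation of that matrix with the log2 processed signals was 0.985 or more on each array. The array design number in the file headers differs from that in the methods, so probes were named through the accession in the files and RefSeq (GRCh38.p14, for names and promoter windows): 26364 of 42405 probes matched a symbol.

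From the intensities, log2 processed signals of unflagged spots were averaged and quantile-normalized, probes with a mean under 3 or without annotation were removed, as the methods state, with the brightest probe of each gene kept. limma 3.58.1 (lmFit, eBayes; R 4.3.3) took the place of the methods' t-test, with Benjamini-Hochberg adjustment over 28850 genes, an adjusted p under 0.05 and a fold of 2. Every member well above background on all arrays of at least 1 group is named with its values, with the called genes that moved most in each related list (up to 3 each way, at least 2-fold). Members and lists were chosen with earlier results of these data known, and 3 marker genes are not reported here. The test was checked on simulated data, where it recovered 59.5% of 200 changed genes. It found 70.9% of the 4-fold and 47.4% of the 2-fold changes, and 5.56% of its calls were false. Simulated means were kept above the filter of 3, so that the filter and dim members were not checked. Signal over background takes the place of depth, and the number of arrays limits the precision. All arrays lay on 1 slide and no probe was saturated. The slide rows were uneven between the groups. Row 1 held siGATA2 arrays 1, 2 and 3 and siControl array 4, and row 2 held siGATA2 array 4 and siControl arrays 1, 2 and 3. Alternatives were 75th percentile and E1A spike-in scaling (7 probes), normexp (offset 50), the deposited log2 values, other filters, the methods' t-test, an intensity trend, array weights, blocks by replicate number or slide row, the mean of probes and leaving out arrays. Leaving out siControl arrays 1 and 3 together, the spike-in scaling without siControl array 1 and a block by title letter were chosen after seeing the data.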

Additional observations from a re-analysis of the deposited data

Results flagged for a closer look

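In 92 groups of 4 arrays examined for a single array far from the others, 5 were singled out, and chance singles out about 1 in 20 groups. The measure is the gap to the nearest other array as a share of the group's range. ADAMTS10 on siControl array 1 lay at 5.21 against 5.38 to 5.39 on the other controls (0.912 of the range). ADAMTS13 on siControl array 1 lay at 12.96 against 11.31 to 11.49 (0.892), and MMP19 on siControl array 1 at 10.14 against 9.78 to 9.81 (0.921). MMP10 on siControl array 3 lay at 3.06 against 4.52 to 4.78 (0.846). COL12A1 on siGATA2 array 3 lay at 8.62 against 8.84 to 8.87 (0.898). Of the 5, siControl array 1 accounted for 3, which is also the array with the lowest spike-in signal.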

How the results depend on the processing

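Under 23 settings, 8 of which left out 1 array, 4 of the 14 called members were called in each (ADAMTS1, ADAMTS3, MMP11 and TIMP3). MMP26 failed the filter in 5 of 23 settings and passed it in the reported fit only through the siControl arrays, so nothing is read from its calls. MMP12 passed it only through the siGATA2 arrays, and nothing is read from its calls either. Of the 16 named members that were not called, 10 were called in none. Leaving out 1 array gave 5 to 8 members called lower, 6 to 7 called higher, 4 to 7 lower and 2 to 3 higher by at least 2-fold. With E1A spike-in scaling 0 members were called higher, and 0 by at least 2-fold, and the median difference of all genes was -0.43 against 0.09. Without siControl arrays 1 and 3, 4 of 32 members tested were called lower, against 3713 of 28745 genes. Replicate numbers gave no pairing, as same-numbered samples deviated with correlations of 0.54, -0.31, 0.17 and 0.22. With the replicate block 7 members were called lower and 7 higher, with ADAMTS10 lost and ADAMTS13 gained, and with the block by title letter 9 and 9. The slide row as a block ended the calls of ADAMTS4 and MMP21. Over all genes it gave 2987 lower and 2184 higher, against 4086 and 3558 in the reported fit. Signs turned only for members that were not called in the reported fit. With spike-in scaling these were ADAMTS14 (-0.092), ADAMTS15 (-0.29), ADAMTS19 (-0.17), ADAMTS2 (-0.27), ADAMTS7 (-0.84), MMP10 (-0.17), MMP17 (-0.59), MMP19 (-0.51), MMP25 (-0.0224) and MMP28 (-0.52), and with siControl array 1 also left out ADAMTS7 (-0.495), MMP14 (0.24), MMP17 (-0.24), MMP19 (-0.0137) and MMP28 (-0.26). Array weights turned ADAMTS2 (-0.18), ADAMTS7 (-0.21) and MMP14 (0.13), and 75th percentile scaling turned ADAMTS7 (-0.24) and MMP14 (0.27). The mean of probes turned ADAMTS7 (-0.12) and MMP25 (-0.26), leaving out siControl arrays 1 and 3 turned ADAMTS7 (-0.00833), and normexp turned MMP14 (0.0272) and MMP25 (-0.56, called lower), whereas array weights called MMP25 higher (0.60). Leaving out 1 array gave -0.14 to 0.16 for ADAMTS2, -0.12 to 0.16 for ADAMTS7, -0.20 to 0.18 for MMP14 and -0.0474 to 0.191 for MMP28. GATA2 passed the test, as higher, under array weights and under the block by title letter (0.47). Over the 46 named genes and these settings, 937 values kept direction and call, 57 lost and 21 gained a call, and 38 turned sign. The cause of these changes was not tested. Probes near background, which were more on siControl arrays 1 and 3, limit what can be said of dim members.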
